A study of Mus musculus with 2 samples.

Results

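The 9 genes described here encode the PDGF receptors *Pdgfra* and *Pdgfrb*, the PDGF ligands *Pdgfa* and *Pdgfb*, the FGF receptor *Fgfr1* and the FGF ligands *Fgf2*, *Fgf7*, *Fgf10* and *Fgf18*, of 32285 genes counted. They were chosen by symbol, as ligands and receptors of both families, and each was found as 1 row of both count matrices. The cells were tdTomato-sorted from Clec3b.creERT2; Ai14.R26.tdTomato mice, in which tamoxifen given 2 weeks before surgery marks cells that then expressed *Clec3b*, and all of their descendants. One library was made from intact femoral diaphyses with the muscle around them (285 fibroblasts of 1204 cells kept) and one from fracture calluses (216 of 3291), each from the pooled tissue of 3 littermates, 3 weeks after the femur was fractured and stabilized. Both libraries carry the same alleles and had the same tamoxifen, so no library without the Cre is compared here. The paper names 3 littermates, 3 weeks after fracture surgery, as the source of both tissues, while the intact library is labelled as having no treatment. Whether both libraries come from the same mice is not stated outright.

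The ages of these mice are not given in the labels. The allele joins CreERT2 to the end of the *Clec3b* coding sequence, so labelling follows the *Clec3b* promoter in any cell type that uses it, and recombined cells stay red after *Clec3b* itself is off. The sorted cells were not all *Clec3b*-expressing fibroblasts. The paper found no meaningful tdTomato in the blood and endothelial cells and treats them as sorting artifacts. That reading was not tested here. *Clec3b* was counted at 1491 CPM (the UMIs, or uniquely tagged molecules, of a gene per 1000000 UMIs of the cells summed) in intact and 1273 CPM in callus fibroblasts, but at 1.03 and 1.21 CPM in the B-lineage-like cells that made up 22.8% and 18.8% of the 2 libraries. The mice are labelled male, yet *Xist*, the RNA of the inactive X chromosome, had a UMI in 96.9% of the 196 intact fibroblasts that reached 5000 UMIs and in 98.1% of the 157 in the callus, while 8 genes of the Y chromosome gave 1 and 0 UMIs. Both libraries go against that label alike, so no result could be given without them.

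PDGF ligands are secreted dimers that bind receptor tyrosine kinases. PDGF-A chains bind the alpha receptor, which marks fibroblasts and other mesenchymal cells, and PDGF-B chains bind both receptors. Endothelial PDGF-B draws mural cells, which carry the beta receptor, to vessels, and osteoclast precursors are another known source. FGF ligands act through FGF receptors with heparan sulphate as a cofactor: FGF2 is stored in matrix and stimulates mesenchymal growth, FGF7 and FGF10 are made by mesenchyme and act mainly on epithelial receptor isoforms, and FGF18 regulates cartilage and bone.

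RefSeq promoter windows (GRCm38.p6) were matched for 6 of the 9 members, and those of the 4 whose window holds no annotated exon are shown, as the sequence before a RefSeq transcript start of genes whose levels are given by stromal type below. They are 250 bases for *Pdgfra* (chr5:75152001-75152250, plus strand), *Fgf7* (chr2:126034408-126034657, plus strand), *Fgf10* (chr13:118714449-118714698, plus strand) and *Fgf18* (chr11:33147401-33147650, minus strand), written 5′ to 3′, with any match to a searched motif in capitals. The *Pdgfra* window ends short of the start of the GENCODE gene span given below, and the *Fgf10* window lies inside the *Fgf10* span, before a RefSeq start downstream of the first GENCODE one.
Pdgfra: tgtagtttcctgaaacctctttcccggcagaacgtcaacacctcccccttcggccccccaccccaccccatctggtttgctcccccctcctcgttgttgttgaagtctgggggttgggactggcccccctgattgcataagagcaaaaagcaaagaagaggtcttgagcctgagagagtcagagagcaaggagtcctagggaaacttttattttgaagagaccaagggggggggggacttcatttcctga
Fgf7: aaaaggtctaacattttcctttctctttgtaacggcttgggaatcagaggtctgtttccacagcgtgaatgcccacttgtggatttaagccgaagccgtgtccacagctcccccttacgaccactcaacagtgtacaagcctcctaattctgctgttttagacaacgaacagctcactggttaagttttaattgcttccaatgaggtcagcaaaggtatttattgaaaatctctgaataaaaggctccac
Fgf10: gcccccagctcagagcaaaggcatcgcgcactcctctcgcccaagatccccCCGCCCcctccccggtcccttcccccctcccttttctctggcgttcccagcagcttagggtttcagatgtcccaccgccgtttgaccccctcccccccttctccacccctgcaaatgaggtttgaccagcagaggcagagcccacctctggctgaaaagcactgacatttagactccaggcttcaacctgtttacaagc
Fgf18: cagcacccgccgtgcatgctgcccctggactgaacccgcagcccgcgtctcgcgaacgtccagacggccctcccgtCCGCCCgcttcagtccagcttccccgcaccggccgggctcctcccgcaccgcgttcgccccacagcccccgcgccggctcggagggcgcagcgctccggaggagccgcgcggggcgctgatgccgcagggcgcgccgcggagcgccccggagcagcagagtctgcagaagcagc
The motifs searched, on both strands and with no overlap between the matches shown, were the TATA box (TATAAA), the GC box (GGGCGG) and the AP-1 site (TGANTCA). Of 32817 promoter windows of the same length, 12.4% held the first, 32.7% the second and 6.75% the third. The *Fgf10* and *Fgf18* windows each hold 1 GC box, as its reverse complement, 199 and 174 bases before the RefSeq start. No searched motif is in the *Pdgfra* and *Fgf7* windows. The windows are 77.2% G and C for *Fgf18*, 61.2% for *Fgf10*, 54.4% for *Pdgfra* and 43.6% for *Fgf7*, against a median of 52.4%. Of the other members, *Pdgfa* and *Fgf2* have windows that overlap annotated exons, and *Pdgfrb*, *Pdgfb* and *Fgfr1* are named only.

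The kept cells had a median of 4914 UMIs in the intact and 6821 in the callus library, and 7369 and 7649 in fibroblasts. Clusters were made without the 9 members and 78 other genes of both pathways and were named by marker lists, so names end in "-like", and *Pi16*-type and *Col15a1*-type fibroblasts carry the study's names for those marker sets. The fibroblasts comprised 211 intact and 115 callus *Pi16*-type cells, 55 and 34 *Col15a1*-type cells and 19 and 67 tenocyte-like cells, so the tenocyte-like share was 6.67% of intact and 31.0% of callus fibroblasts. Osteoblast-like cells (1 intact, 31 callus) and bone marrow stromal cell-like cells (BMSC-like, 0 and 46, led by *Mmp13*, *Spp1* and *Cxcl12*) came almost wholly from the callus. With 1 library per condition no test between conditions is possible. Intervals in brackets are exact 95% intervals that cover counting error only, and the levels of different genes are not ranked against each other, since 3′ tags were counted and capture differs between genes.

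All members but *Pdgfb* had most of their UMIs in stromal types. Of all UMIs counted in kept cells, the stromal types (fibroblasts, BMSC-like and osteoblast-like cells) held 94.9% of 2236 for *Pdgfra*, 87.0% of 840 for *Pdgfrb*, 76.7% of 2035 for *Fgfr1*, 89.0% of 317 for *Fgf2*, 95% of 160 for *Fgf7*, 83.3% of 84 for *Fgf10* and 93.7% of 334 for Fgf18. They held 56.8% of 347 for *Pdgfa* and 0.235% of 425 for Pdgfb. The background was low: in B-lineage-like and neutrophil-like cells no member exceeded 1.27 CPM, and at most 0.397% of cells thinned to 2000 UMIs had a UMI of any member. Their median depths were 2864.5 and 3339 UMIs for B-lineage-like cells, and 5731 and 7979 for neutrophil-like cells.

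**Figure D1:**
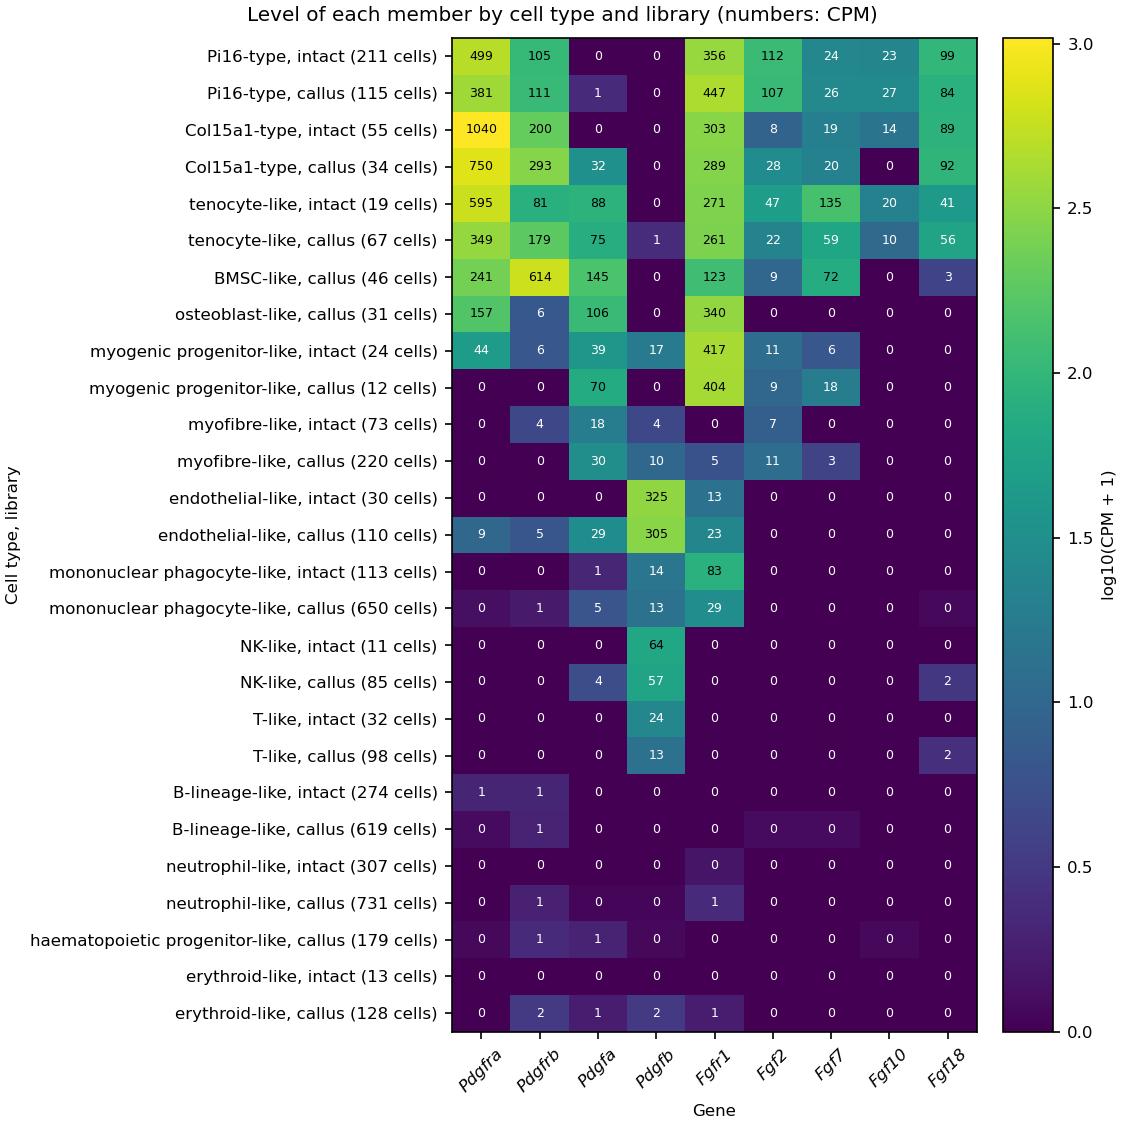
Heat map of the CPM of each member (columns) in each cell type and library (rows), printed in each field and coloured by log10(CPM + 1). A printed 0 also stands for values under 0.5 CPM. The 4 FGF ligands have UMIs in the fibroblast rows, except *Fgf10* in callus *Col15a1*-type cells, and none in the osteoblast-like row, *Fgfr1* is high in myogenic progenitor-like rows as well as stromal ones, and *Pdgfb* is highest in endothelial-like rows (325 CPM intact, 305 CPM callus).

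*Pdgfra*, the alpha receptor gene (ENSMUSG00000029231, GRCm38 chr5:75152292-75198215, plus strand), was counted in every fibroblast type and was highest in *Col15a1*-type cells. In *Pi16*-type cells it stood at 499 CPM (464 to 537, 729 UMIs) in the intact and 381 CPM (339 to 427, 298 UMIs) in the callus library. *Col15a1*-type cells had 1040 CPM (939 to 1149) intact and 750 CPM (646 to 865) callus, and tenocyte-like cells 595 CPM (477 to 733) and 349 CPM (307 to 396). The intervals of *Pi16*-type and tenocyte-like cells overlap within each library, and those of *Col15a1*-type cells lie above both. Callus BMSC-like cells had 241 CPM (191 to 300) and osteoblast-like cells 157 CPM (129 to 189), whose intervals do not overlap each other or those of any fibroblast type. The log2 ratio of BMSC-like over osteoblast-like cells was 0.62 (0.18 to 1.05), below the median of 0.79 over the 5646 genes compared. At equal depth, 62.8% of 258 intact and 55.3% of 199 callus fibroblasts had a *Pdgfra* UMI, and 84.9% and 80.1% before thinning.

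Among the 4 *Pi16*-type clusters, *Pdgfra* was 450 CPM in the cluster led by *Has1*, *Ptx3* and *Tnfaip6*, 522 CPM in that led by *Fbn1*, *Pcsk6* and *Mfap5*, 456 CPM in that led by *Smpd3*, *Krtdap* and *Igfbp5* and 202 CPM (128 to 303) in the cluster led by *Akr1c18*, *Krtdap* and *Sbsn*, which held 35 cells. These values sum both libraries. The first 3 have overlapping intervals, and the last lies below them. It was also the shallowest of the 4, with a median of 2965 UMIs per cell against 8470, 7573 and 6176. The part of depth in its level was not tested.

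*Pdgfrb*, the beta receptor gene (ENSMUSG00000024620, chromosome 18, plus strand), was highest in BMSC-like cells, at 614 CPM (533 to 705, 204 UMIs), and 78.0% of 41 such cells had a UMI at equal depth (84.8% of all 46). Osteoblast-like cells of the same library had 5.76 CPM (1.57 to 14.7, 4 UMIs). In fibroblasts, the *Pi16*-type cells had 105 CPM (88.8 to 123) intact and 111 CPM (89.1 to 137) callus, the *Col15a1*-type cells 200 CPM (157 to 251) and 293 CPM (229 to 368), and the tenocyte-like cells 81.2 CPM (41.9 to 142) and 179 CPM (149 to 213).

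The callus *Col15a1*-type level of *Pdgfrb* rests in part on 4 of the 34 cells. These 4 cells had at least 3 of 8 mural markers, held 499 of the 510 mural-list UMIs of the type, and carried 37 of its 73 *Pdgfrb* UMIs, 7 of its 8 *Pdgfa* UMIs and 0 of its 187 *Pdgfra* UMIs. The mural list stood at 2044 CPM in callus *Col15a1*-type cells (8 of 8 markers detected) and at 75.6 CPM in intact ones (3 of 8). Without the 4 cells, *Pdgfrb* was 156 CPM (109 to 216) and *Pdgfra* 812 CPM (700 to 937). No cluster was named mural-like, so a level of *Pdgfrb* in pericytes could not be given.

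**Figure D2:**
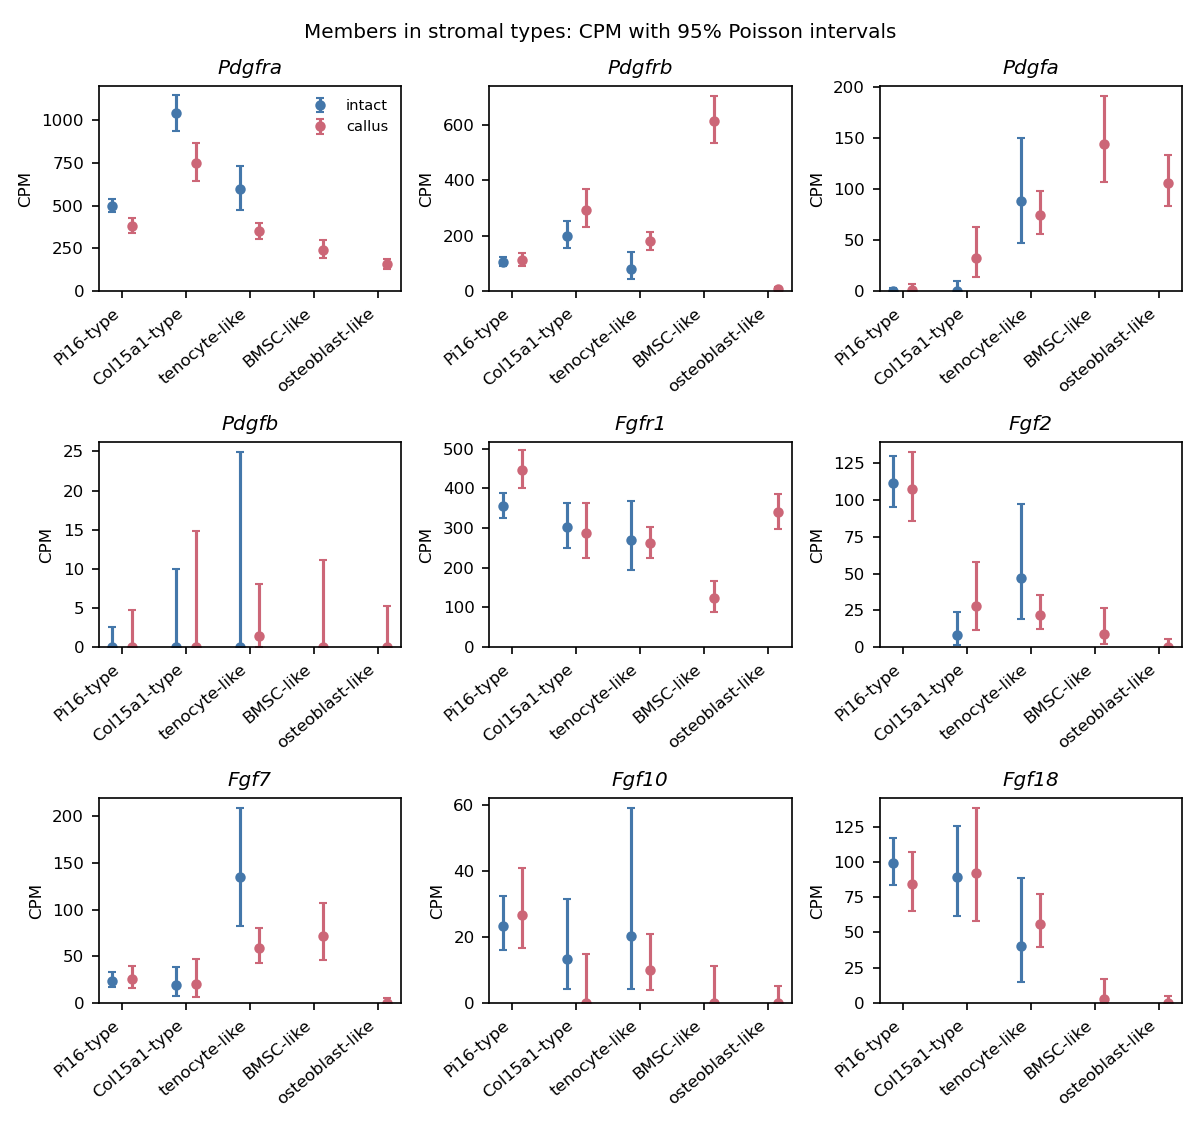
CPM of each member (vertical axes) in the stromal types, intact and callus (points), with exact 95% Poisson intervals (bars). *Pdgfra* is highest in *Col15a1*-type cells, *Pdgfrb* in BMSC-like cells and *Fgf2* in *Pi16*-type cells.

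*Pdgfa*, a PDGF chain that binds the alpha receptor (ENSMUSG00000025856, chr5:138976014-138997370, minus strand), was nearly absent from *Pi16*-type fibroblasts, with 0 UMIs intact (a count of 0 allows up to 2.05 CPM) and 1 UMI callus (1.28 CPM). *Col15a1*-type cells had 0 UMIs intact (up to 8.11 CPM) and 8 UMIs callus. Tenocyte-like cells carried it in both libraries, at 87.9 CPM (46.8 to 150, 13 UMIs) and 75.1 CPM (56.1 to 98.5, 52 UMIs), and these libraries overlap. BMSC-like cells had 145 CPM (107 to 192) and osteoblast-like cells 106 CPM (83.6 to 134), in 17 of 46 and 22 of 31 cells.

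Outside the stroma, *Pdgfa* was counted in myogenic progenitor-like cells at 38.9 CPM (7 UMIs) intact and 70.2 CPM (8 UMIs) callus, in myofibre-like cells at 17.8 and 30.1 CPM, and in endothelial-like cells at 0 UMIs intact (up to 37.5 CPM) and 28.7 CPM (16.4 to 46.6) callus. The summed fibroblast marker list stood at 769 CPM in callus and 75.0 CPM in intact endothelial-like cells, and its part in their *Pdgfa* counts was not tested. An antisense gene that overlaps a *Pdgfa* exon, *6330403L08Rik*, was counted separately and had 31 UMIs.

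*Pdgfb*, the other chain, which binds both receptors (ENSMUSG00000000489, chr15:79995874-80014977, minus strand), was highest in endothelial-like cells, which held 26 intact and 170 callus UMIs of the 425 counted. They had 325 CPM (212 to 476) intact and 305 CPM (261 to 354) callus. The log2 ratio of callus over intact was -0.09 (-0.69 to 0.56). At equal depth 50% of 18 intact and 43.5% of 92 callus endothelial-like cells had a UMI. NK-like cells had 63.8 CPM (3 UMIs) and 57.0 CPM (37.6 to 83.0), and T-like cells 24.0 and 12.7 CPM. Mononuclear phagocyte-like cells had 14.4 CPM (7.66 to 24.6) and 12.7 CPM (10.0 to 15.9). This type pools 5 clusters, and includes 86 cells of a cluster named by the dendritic list and led by *Siglech*, *Ccr9* and *Cd7*. Among the phagocyte-like cells, with both libraries summed, the cluster led by *C1qa* had 57.6 CPM (40.8 to 79.0) and that led by *Retnla* 28.9 CPM (20.2 to 40.01). All fibroblasts together had 1 *Pdgfb* UMI.

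The cluster with osteoclast markers was mixed. Of its 47 cells, 12 had at least 3 osteoclast markers, and those had 61 *Pdgfb* UMIs in 11 cells (161 CPM), 26 *Pdgfa* UMIs in 9 cells (68.8 CPM) and no UMI of either receptor. The other 35 cells held 16 *Pdgfb*, 95 *Pdgfra*, 31 *Pdgfrb* and 63 *Fgfr1* UMIs, so the cluster as a whole is not read as 1 type.

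**Figure D3:**
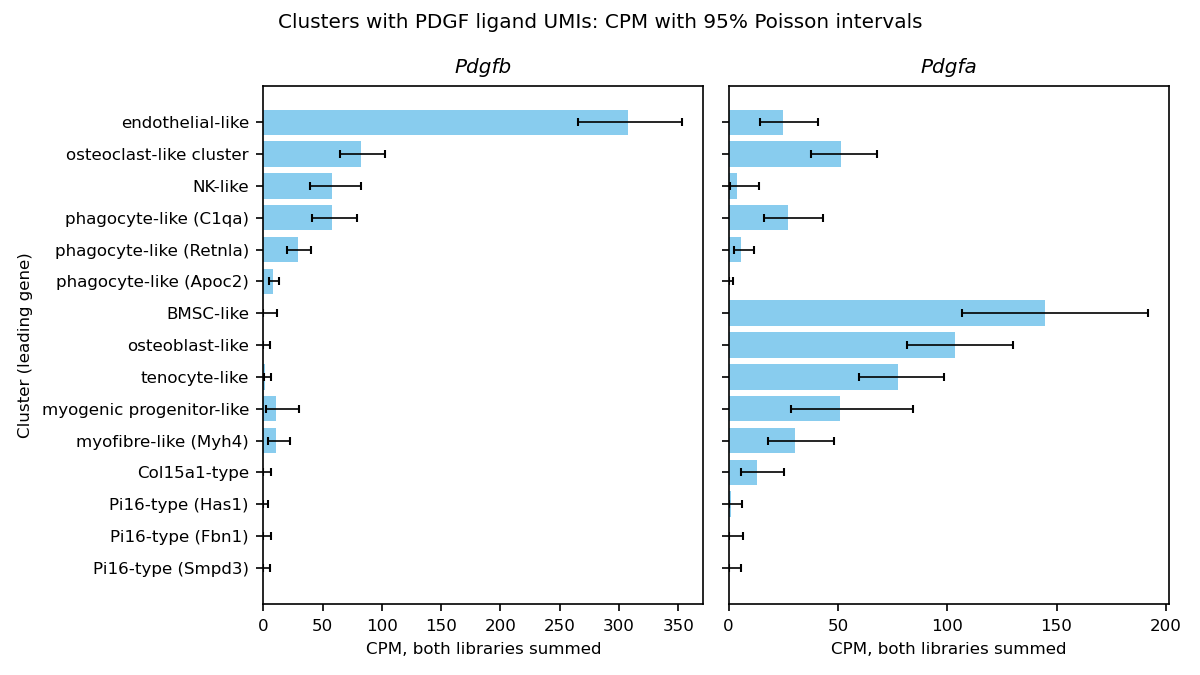
CPM of *Pdgfb* (left) and *Pdgfa* (right) in clusters with both libraries summed, with exact 95% Poisson intervals as whiskers. *Pdgfb* is highest in the endothelial-like cluster, and *Pdgfa* in BMSC-like (145 CPM), osteoblast-like and tenocyte-like cells.

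*Fgfr1*, the main FGF receptor gene of mesenchymal cells (ENSMUSG00000031565, chr8:25513654-25575718, plus strand), was counted in all stromal types. *Pi16*-type cells had 356 CPM (326 to 388) intact and 447 CPM (402 to 497) callus, *Col15a1*-type cells 303 (249 to 364) and 289 CPM (226 to 363), and tenocyte-like cells 271 (193 to 368) and 261 CPM (225 to 302). The callus interval of *Pi16*-type cells lies above the other fibroblast types, and the intact one overlaps them. Callus osteoblast-like cells had 340 CPM (298 to 386), with 236 UMIs. BMSC-like cells were lower, at 123 CPM (88.6 to 167). Myogenic progenitor-like cells had 417 CPM (328 to 523) intact and 404 CPM (296 to 538) callus, within the interval of the other library. At equal depth 52.3% of intact and 47.2% of callus fibroblasts had a UMI (82.5% and 83.8% before thinning).

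*Fgfr1* was also counted in mononuclear phagocyte-like cells, where the libraries differed: 83.0 CPM (65.3 to 104, 75 UMIs) intact and 28.8 CPM (24.7 to 33.4, 177 UMIs) callus. In the cluster led by *C1qa* it was 411 CPM (296 to 555, 24 cells) intact and 75.3 CPM (54.3 to 102, 103 cells) callus, and in that led by *Retnla* 234 CPM (161 to 328, 17 cells) and 110 CPM (91.7 to 132, 135 cells). In both clusters the intact interval lies above the callus interval. The other clusters pooled in this type, with the dendritic one among them, are not described for *Fgfr1*.

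*Fgf2*, a growth factor of mesenchymal cells (ENSMUSG00000037225, chr3:37348346-37410108, plus strand), set the *Pi16*-type cells apart. They had 112 CPM (95.2 to 130, 163 UMIs) intact and 107 CPM (85.6 to 133, 84 UMIs) callus, whereas *Col15a1*-type cells had 8.11 CPM (1.67 to 23.7, 3 UMIs) and 28.1 CPM (11.3 to 57.8, 7 UMIs). Tenocyte-like cells had 47.3 and 21.7 CPM (7 and 15 UMIs), BMSC-like cells 9.03 CPM (3 UMIs) and osteoblast-like cells 0 UMIs, which allows up to 4.32 CPM. The 4 *Pi16*-type clusters had 104 to 119 CPM each. *Nudt6*, which lies on the opposite strand and overlaps *Fgf2* exons, had 260 UMIs counted separately.

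*Fgf18*, a regulator of cartilage and bone growth (ENSMUSG00000057967, chr11:33117430-33147400, minus strand), was shared by *Pi16*-type cells, at 99.3 CPM (83.8 to 117) intact and 84.4 CPM (65.2 to 107) callus, and *Col15a1*-type cells, at 89.2 (61.4 to 125) and 92.2 CPM (58.4 to 138). Tenocyte-like cells had 40.6 CPM (14.9 to 88.3) and 56.3 CPM (40.04 to 77.0). BMSC-like cells had 1 UMI (3.01 CPM) and osteoblast-like cells 0. At equal depth 17.4% and 15.1% of intact and callus fibroblasts had a UMI, against 40% and 36.1% before thinning.

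*Fgf7*, a mesenchymal ligand of epithelial FGF receptors (ENSMUSG00000027208, chr2:126034658-126091185, plus strand), stood at 135 CPM (82.6 to 209, 20 UMIs) in intact and 59.2 CPM (42.5 to 80.3, 41 UMIs) in callus tenocyte-like cells. The intact interval lies above the other fibroblast types, and the callus one lies above *Pi16*-type cells and overlaps *Col15a1*-type cells. BMSC-like cells had 72.3 CPM (46.3 to 108), which overlaps the callus tenocyte-like cells. *Pi16*-type cells had 24.0 and 25.6 CPM and *Col15a1*-type cells 18.9 and 20.04 CPM, with overlapping intervals. Osteoblast-like cells had 0 UMIs. *Fgf10*, the related ligand (ENSMUSG00000021732, chr13:118669791-118792115, plus strand), was the sparsest member, with 34 UMIs (23.3 CPM) intact and 21 UMIs (26.8 CPM) callus in *Pi16*-type cells, in 21 and 13 cells. *Col15a1*-type cells had 5 UMIs intact and 0 callus (up to 12.025 CPM), and neither BMSC-like nor osteoblast-like cells had any. Thinned, 4.65% of intact and 3.02% of callus fibroblasts had a *Fgf10* UMI, and 5.04% and 8.04% a *Fgf7* UMI.

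The *Col15a1*-type and *Pi16*-type cells were next compared directly. In the intact library the log2 ratio of *Col15a1*-type over *Pi16*-type was 1.06 (0.88 to 1.24) for *Pdgfra*, 0.93 (0.51 to 1.34) for *Pdgfrb* and -3.78 (-6.08 to -2.21) for *Fgf2*, and the intervals of *Fgfr1*, *Fgf7*, *Fgf10* and *Fgf18* included 0. Of the 7 members with at least 20 UMIs over both types, 1 was at least 2-fold higher and 1 at least 2-fold lower, and of all 8090 genes with that many, 8.33% were higher and 10.4% lower. In the callus library the ratios were 0.98 (0.71 to 1.25) for *Pdgfra*, -1.94 (-3.29 to -0.83) for *Fgf2* and 1.40 (0.93 to 1.86) for *Pdgfrb*, the last falling to 0.49 without the 4 cells with mural markers. *Fgfr1* was lower in callus *Col15a1*-type cells, at -0.63 (-1.02 to -0.26). Some of these ratios moved with the clustering. Callus *Pdgfra* was 0.22 at stromal resolution 0.3 and 1.48 with the members among the variable genes. At stromal resolution 0.3 intact *Pdgfra* was 0.85, under the 2-fold limit, and intact *Fgf7* turned from -0.34 to 1.07.

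Tenocyte-like cells differed from *Pi16*-type cells in ligands in both libraries. In the callus library they also differed in the receptors *Fgfr1* and *Pdgfrb*, both within 2-fold. In the callus the log2 ratio was 5.88 (3.33 to 11.21, 52 UMIs against 1) for *Pdgfa*, 1.21 (0.41 to 2.06) for *Fgf7*, -2.31 (-3.21 to -1.51) for *Fgf2* and -1.41 (-2.89 to -0.12) for *Fgf10*, with -0.78 (-1.04 to -0.51) for *Fgfr1* and 0.69 (0.28 to 1.10) for Pdgfrb. The callus interval of *Pdgfra* included 0, at -0.12 (-0.38 to 0.13). Of 8 members compared, 2 were at least 2-fold higher and 2 at least 2-fold lower, against 7.97% and 8.18% of 7652 genes. In the intact library the signs for *Pdgfa* (13 UMIs against 0), *Fgf7* (2.50, 1.63 to 3.33) and *Fgf2* (-1.24, -2.57 to -0.16) were the same, and *Fgf18* stood at -1.29 (-2.76 to -0.13). The intact intervals of the receptors included 0, with the sign turned for *Pdgfrb* (-0.37, -1.35 to 0.48) and kept for *Fgfr1* (-0.40, -0.90 to 0.07). That of *Fgf10* (-0.20, -2.55 to 1.47) also included 0.

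The callus and intact fibroblasts were then compared. *Pdgfa* was the only member at least 2-fold apart, with 35.4 CPM (61 UMIs) in callus and 6.57 CPM (13 UMIs) in intact fibroblasts, a log2 ratio of 2.43 (1.55 to 3.42). It was thus 1 of 8 members compared, against 5.11% of 10016 genes that were at least 2-fold higher and 2.7% that were at least 2-fold lower. The *Pdgfa* UMIs lay in 6 of 285 intact and 27 of 216 callus fibroblasts, with up to 4 and 10 in a cell. The interval of the ratio does not cover this clumping. At equal depth 1.55% (0.42 to 3.92) of intact and 5.53% (2.79 to 9.68) of callus fibroblasts had a *Pdgfa* UMI, and these intervals overlap. Within tenocyte-like cells the *Pdgfa* ratio was -0.23 (-1.13 to 0.77), and with tenocyte-like cells left out the counts were 9 against 0 UMIs, too few to compare. Weighting the callus types to their intact share of UMIs gave 0.93.

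*Pdgfra* was lower in callus, at -0.53 (-0.66 to -0.39), in each type: -0.39 (-0.59 to -0.19) in *Pi16*-type, -0.47 (-0.73 to -0.22) in *Col15a1*-type and -0.77 (-1.13 to -0.40) in tenocyte-like cells. *Pdgfrb* was higher in callus, at 0.45 (0.19 to 0.70), with 0.09 (-0.31 to 0.47) in *Pi16*-type, 0.55 (0.06 to 1.04) in *Col15a1*-type and 1.14 (0.29 to 2.13, 124 against 12 UMIs) in tenocyte-like cells. The *Col15a1*-type direction of *Pdgfrb* turns without the 4 cells with mural markers, at 156 CPM in callus against 200 CPM in intact cells. The ratio of 0.45 over all fibroblasts includes those cells. Without them *Pdgfra* in callus *Col15a1*-type cells was 812 CPM (750 CPM with them), still below the 1040 CPM of intact ones. *Fgf2* was lower over all fibroblasts, at -0.51 (-0.87 to -0.15), but stood at -0.06 (-0.45 to 0.33) in *Pi16*-type cells and at -0.041 (-0.43 to 0.34) in fibroblasts without the tenocyte-like cells, with -1.13 (-2.51 to 0.41, 15 against 7 UMIs) in tenocyte-like cells. *Fgfr1* stood at 0.04 (-0.12 to 0.20) over all fibroblasts and at 0.33 (0.13 to 0.53) in *Pi16*-type cells. *Fgf7* was 0.29 (-0.23 to 0.81), *Fgf10* -0.39 (-1.13 to 0.34) and *Fgf18* -0.33 (-0.66 to 0.01), while in tenocyte-like cells *Fgf7* was -1.19 (-2.00 to -0.34).

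In *Pi16*-type cells alone, 0 of 7 members compared were at least 2-fold apart, against 3.05% of 8553 genes higher and 3.16% lower. The median log2 ratio of all genes was 0.036 over all fibroblasts. Markers of other cells moved between these libraries too: in callus against intact fibroblasts the summed myofibre list (8 of 8 markers detected in each) was 763 against 201 CPM, the osteoblast list (6 and 3 of 7 detected) 202 against 8.60 CPM, the chondrocyte list (6 and 2 of 6 detected) 141 against 18.7 CPM and the mural list (8 and 5 of 8 detected) 351 against 35.4 CPM, while the erythroid list (4 and 5 of 7 detected) was 161 against 892 CPM. The NK list (6 and 1 of 6 detected) was 41.2 against 0.51 CPM. In tenocyte-like cells alone, callus against intact, the osteoblast list was 351 against 6.76 CPM and the chondrocyte list 316 against 60.9 CPM. There the NK list was 101 against 0 CPM, while the mural list (111 against 169 CPM) and the erythroid list (124 against 778 CPM) were lower. The part of these markers in the ratios was not tested, apart from the mural cells above.

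**Figure D4:**
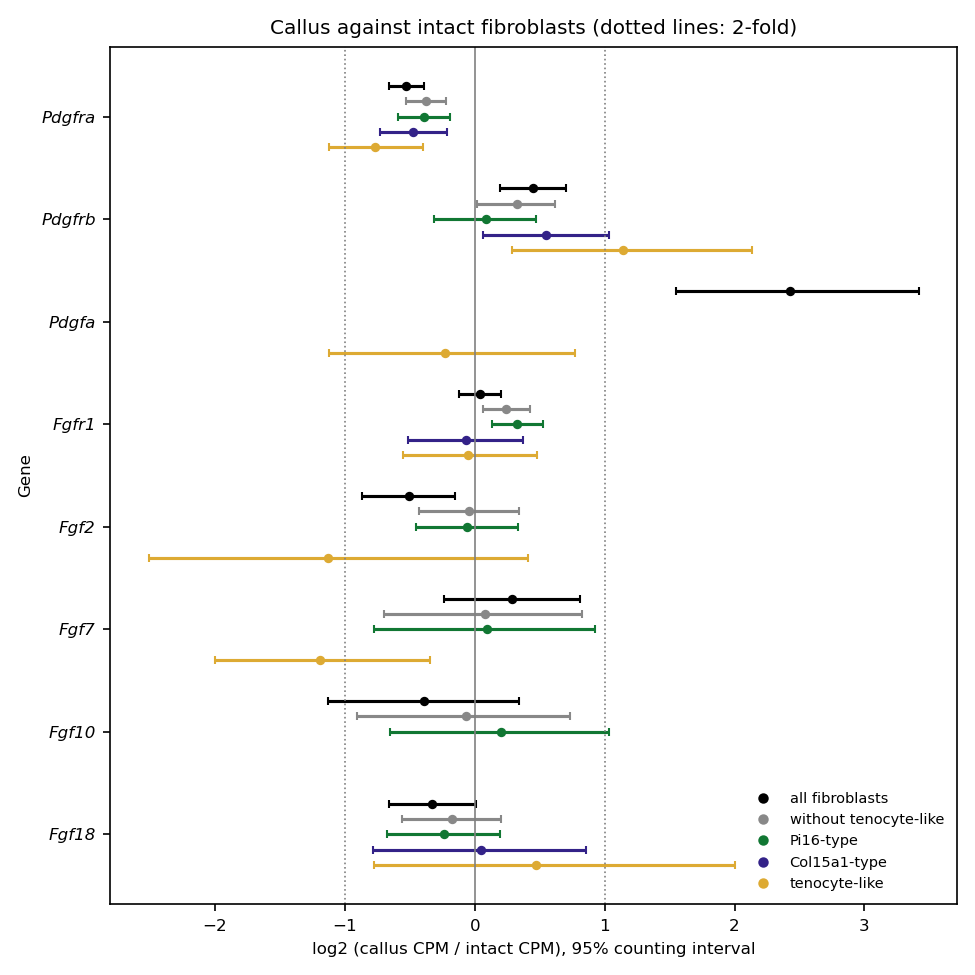
Log2 ratio of callus over intact for each member but *Pdgfb* (rows), with exact 95% intervals as horizontal bars and a line at 0. Colours show all fibroblasts, fibroblasts without tenocyte-like cells and each fibroblast type. Points are drawn where at least 20 UMIs were counted and neither count was 0. *Pdgfra* lies below 0 in every type, and the high *Pdgfa* ratio of all fibroblasts (2.43) is not seen within tenocyte-like cells (-0.23).

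The bone-lineage types of the callus carried different sets. Against callus fibroblasts, BMSC-like cells had log2 ratios of 1.90 (1.63 to 2.16) for *Pdgfrb* and 2.03 (1.45 to 2.60) for *Pdgfa*, with -1.50 (-2.00 to -1.04) for *Fgfr1*, -2.77 (-5.07 to -1.18) for *Fgf2* and -4.62 (-9.94 to -2.12) for Fgf18. Of the 8 members compared, 2 were at least 2-fold higher and 3 at least 2-fold lower, against 13.9% and 14.4% of 8947 genes. Osteoblast-like cells had 1.59 (1.08 to 2.10) for *Pdgfa* and -0.04 (-0.27 to 0.18) for *Fgfr1*, with -1.43 (-1.73 to -1.13) for *Pdgfra*, -4.84 (-6.72 to -3.47) for *Pdgfrb* and no UMI of *Fgf2*, *Fgf7*, *Fgf10* or Fgf18.

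In osteoblast-like cells 1 of 8 members was at least 2-fold higher and 6 at least 2-fold lower, against 5.59% and 42.4% of 8943 genes, where the median gene was at -0.79. The *Fgf2*, *Fgf7*, *Fgf10* and *Fgf18* counts of 0 stand against 106, 66, 28 and 128 UMIs in fibroblasts, and with 3 counts in their place the log2 ratios are at most -3.83, -3.15, -1.91 and -4.10. Compared directly, BMSC-like cells exceeded osteoblast-like cells in *Pdgfrb* by 6.74 (5.36 to 8.63) and were below them in *Fgfr1* by a ratio of -1.46 (-1.98 to -0.98), while *Pdgfa* stood at 0.44 (-0.11 to 0.98). The median of the 5646 genes compared between these 2 types was 0.79.

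**Figure D5:**
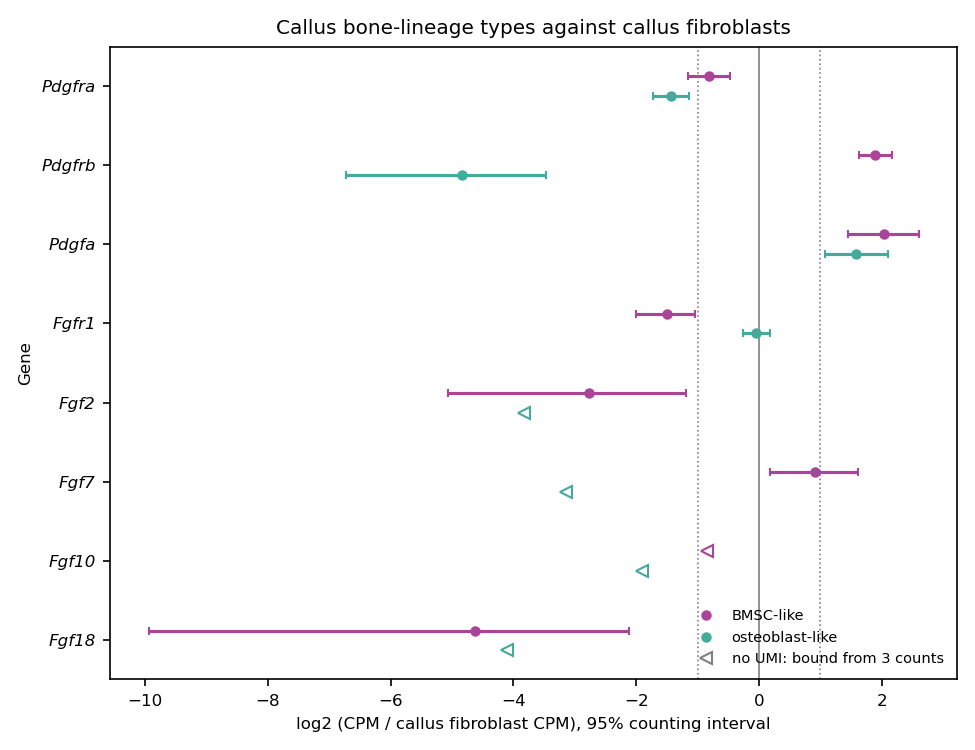
Log2 ratio of BMSC-like and of osteoblast-like cells over fibroblasts of the callus library for each member but *Pdgfb* (rows). Bars are exact 95% intervals, and an open triangle is the bound where a count was 0. *Pdgfrb* lies at 1.90 in BMSC-like and -4.84 in osteoblast-like cells, while *Pdgfa* is above 0 in both.

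The 78 other genes of both pathways were compared in the same way. In callus against intact fibroblasts 53 had at least 20 UMIs, and 7 were at least 2-fold higher, 1 lower and 45 within, against 5.11% higher and 2.7% lower of all genes. The higher ones included the heparan sulphate proteoglycans *Gpc1* (2.56), *Sdc3* (2.20) and *Sdc1* (2.12), the immediate-early gene *Egr2* (2.20), the receptor-like gene *Pdgfrl* (2.08), the ligand *Fgf16* (1.73) and the phosphatase *Dusp6* (1.28), and the cell cycle gene *Ccnd1* was lower (-1.10). The higher genes had few fibroblast UMIs, from 25 (*Sdc3*) to 67 (*Sdc1*) over both libraries, except *Pdgfrl* with 244. Tenocyte-like cells held 16 *Sdc3*, 27 *Gpc1*, 38 *Sdc1*, 13 *Egr2*, 163 *Pdgfrl*, 19 *Fgf16* and 17 *Dusp6* UMIs. With tenocyte-like cells left out, 4 of 47 pathway genes were higher and 1 lower, and *Pdgfrl* stood at 1.22. The share of all genes past 2-fold was not taken for that comparison. The median of the 53 was -0.0037, against 0.036 for all genes. In *Pi16*-type cells 0 of 39 were at least 2-fold higher and *Dusp5* (-1.62) and *Agrn* (-1.10) were lower, against 3.05% and 3.16% of all genes.

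BMSC-like cells differed from callus fibroblasts in the other FGF receptors as well. *Fgfr2* had 118 UMIs against 14 (log2 5.45, 4.65 to 6.37) and *Fgfr3* 26 against 3 (5.49, 3.79 to 7.86), and the decoy-like receptor *Fgfrl1* had 18 against 21 (2.15, 1.16 to 3.13). Of 52 pathway genes compared 16 were at least 2-fold higher and 9 lower, against 13.9% and 14.4% of all genes. The higher ones included *Sdc3* (4.03), *Gpc1* (3.04), *Agrn* (2.86) and the feedback phosphatases *Dusp6* (2.59) and *Dusp5* (2.44), and the lower ones *Gpc3* (-6.31), *Pdgfrl* (-4.21) and *Fgf1* (-3.77). In osteoblast-like cells 4 of 50 were higher, *Sdc3* (4.06), *Gpc1* (3.23), *Sparc* (3.09) and *Fgfr2* (2.31), and 25 were lower, against 5.59% and 42.4% of all genes, so these shares are near the background.

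Between fibroblast types, the intact *Col15a1*-type cells exceeded *Pi16*-type cells in *Pdgfrl* (6.02), the FGF antagonist gene *Spry1* (4.34), the transcription factor gene *Etv1* (3.70) and the basement membrane proteoglycan *Hspg2* (1.84). *Pi16*-type cells held more *Fgf1* (-3.88), *Gpc6* (-3.22) and *Pdgfd* (-1.61), and *Pdgfc* (63 UMIs against 0). Of 41 pathway genes compared, 9 were at least 2-fold higher in *Col15a1*-type cells and 6 lower, against 8.33% and 10.4% of all genes. In the callus, tenocyte-like cells exceeded *Pi16*-type cells in *Pdgfrl* (4.56), *Sdc1* (3.31) and *Gpc1* (2.82), and had 20 *Fgf9* UMIs against 0. Of 44 pathway genes compared there, 8 were at least 2-fold higher and 4 lower, against 7.97% and 8.18% of all genes. The lower ones were 1 PDGF ligand, 1 FGF ligand, 1 gene of ligand binding or processing and 1 feedback inhibitor or target.

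Pairs of members were counted in the same fibroblasts at equal depth. A *Pdgfra* and a *Pdgfrb* UMI were found together in 36 of 258 intact (14.0%) and 35 of 199 callus fibroblasts (17.6%), where the product of the 2 shares gives 12.7% and 15.0%. *Pdgfra* and *Fgfr1* were found together in 30.6% and 29.1%, against products of 32.9% and 26.1%, and *Fgfr1* and *Fgf2* in 6.20% and 9.05%, against 7.10% and 4.98%. *Pdgfra* with *Pdgfa* was found in 1 and 3 cells, and *Fgf7* with *Fgf10* in 1 and 0. In BMSC-like cells 12 of 41 (29.3%) had both PDGF receptors.

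Genes whose levels followed those of the members most closely were ranked by Pearson's r of log2(CPM + 10) over 32 groups of cell type and library, among 12047 genes. The groups share libraries and the values are a description. They were *Col6a3* (0.986), *Srpx2* (0.982) and *Slit3* (0.981) for *Pdgfra*, *Islr* (0.948), *Naalad2* (0.942) and *Myl9* (0.935) for *Pdgfrb*, *Palld* (0.854), *Ccn2* (0.803) and *Tnc* (0.802) for *Pdgfa*, and included *Abcb1a* (0.852) and *Cd300lg* (0.838) for Pdgfb. For *Fgfr1* they were *Pmp22* (0.944), *Lpar1* (0.934) and *Gpx3* (0.933), for *Fgf2* *Sdk1* (0.951), *Sema3c* (0.944) and *Gfpt2* (0.940), for *Fgf7* *Gdf10* (0.921), *Sfrp1* (0.910) and *Fzd1* (0.908), and for *Fgf18* *Ebf2* (0.978), *Clec3b* (0.977) and *Ccl11* (0.976). Of these genes, *Clec3b* and *Sema3c* are in the marker lists that named the fibroblast types, so their place is not independent of the naming. *Fgf10* had too few UMIs to be ranked.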

How the data were processed

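tdTomato-sorted cells of 1 intact and 1 callus library were measured with the 10x Chromium 3′ v3 kit. The authors deposited UMI counts per gene and barcode, which the file header credits to Cell Ranger 6.0.0 and the submitters' processing notes to mm10, and positions were taken from GENCODE annotation of GRCm38. Here the 1872 intact and 3987 callus barcodes (12112002 and 36714320 UMIs) were reduced to cells in which 500 or more genes were found and no more than 10% of UMIs were mitochondrial, and 7 doublets called by Scrublet were removed (0.155% of cells, few for this number). The libraries shared 1 barcode. Cells were normalized, log-transformed and clustered (2000 variable genes, 30 components, 15 neighbours, Leiden resolution 1 for all cells and 0.5 for 662 cells of stromal, osteoclast-like and myogenic clusters; scanpy 1.11.5) without the members and pathway genes.

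A cluster took a list's name if 60% of its markers had a log2 ratio of at least 1, or 2 were among its 10 leading genes, with a lead of 0.5 for fibroblast subtypes. These limits were set after clusters had been seen. CPM sum UMIs over cells. Exact Poisson, Clopper-Pearson and conditional binomial intervals are at 95%, a count of 0 allows 3 counts, and shares were also taken after thinning to 2000 UMIs per cell. The 2-fold call and the ratio interval were run on simulated Poisson counts, which hold no clumping within cells and no spread between mice. The members and lists were chosen with earlier results of these data known. All 9 members are named, with the pathway genes at least 2-fold apart (up to 10 per comparison by size, and up to 3 highest and 3 lowest of a role described), the 3 genes most like each member, of which 1 is not reported here, and leading genes. *Col15a1* callus ratios, the 4 cells with mural markers and the phagocyte clusters were described after their values were seen. With 1 library per condition, the 14 planned and 3 added alternatives give values and no tests.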

Additional observations from a re-analysis of the deposited data

Results flagged for a closer look

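*Fgfr1* moved in opposite directions between the libraries in *Pi16*-type fibroblasts and in mononuclear phagocyte-like cells, with log2 ratios of callus over intact of 0.33 and -1.53. The difference was not tested, since each condition has 1 library. The CPM were 356 and 447 in *Pi16*-type cells and 83.0 and 28.8 in the phagocyte-like cells, intact and callus in turn, and the phagocyte-like cells numbered 113 and 650. The summed level of the fibroblast marker list in the cluster led by *C1qa* was 39.1 CPM intact and 73.5 CPM callus, and its part in the ratio was not tested.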

How the results depend on the processing

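With 1 library per condition, no interval above includes the variation between mice, and callus *Col15a1*-type cells (34) and intact tenocyte-like cells (19) limit the comparisons that use them. Most values recomputed under the alternatives moved by less than the counting interval of the value. These were 105 of 111 callus over intact ratios of the members and 140 of 162 *Col15a1*-type over *Pi16*-type ratios. They were also 1088 of 1161 CPM, 166 of 216 shares and 102 of 108 pair counts. Among the recomputed ratios, none that was at least 2-fold apart turned its direction. The other ratios above, such as those of tenocyte-like, BMSC-like and osteoblast-like cells over other types, were not recomputed. The setting with at least 50 UMIs only drops genes and leaves the other ratios unchanged, so the ratios it keeps count as unmoved by design. Leaving out fibroblasts with mural markers removes no intact cell, so intact CPM and ratios, and CPM of other types, cannot move. The stromal resolutions do not recluster endothelial-like or mononuclear phagocyte-like cells. Such values are also counted as unmoved. No paired analysis was possible because each condition has 1 library.

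The callus over intact ratio of *Pdgfra* ranged from -0.56 to -0.37 over 14 alternatives, that of *Pdgfrb* from 0.23 to 0.60, that of *Fgf2* from -0.74 to -0.022 and that of *Pdgfa* from 0.93 to 3.19 over 13. Among ratios within 2-fold, the sign changed for *Fgf7* (-0.21 to 0.48), *Fgfr1* (-0.0074 to 0.25) and *Fgf10* (-0.42 to 0.0062) in callus over intact, and for *Fgf7* in both libraries (-1.38 to 1.07 and -1.03 to 1.14), intact *Fgfr1* (-0.30 to 0.015) and callus *Fgf18* (-0.42 to 0.56) in *Col15a1*-type over *Pi16*-type cells. With tenocyte-like cells left out, *Pdgfra* was -0.37, *Fgfr1* 0.24 and *Fgf2* -0.041. In that setting 0 of 7 members and 5 of 47 pathway genes were at least 2-fold apart, against 1 of 8 and 8 of 53. With callus types weighted to the intact shares, *Pdgfa* was 0.93, *Fgfr1* 0.25, *Fgf2* -0.022 and the number of members 0. Pathway genes at least 2-fold apart numbered 4 with single cells gated by markers and 3 with at least 50 UMIs. The share of all genes past 2-fold was not taken under the alternatives, and the genes compared differ between some of them. These counts are therefore not read as a change.

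For *Col15a1*-type over *Pi16*-type cells, intact *Pdgfra* was 0.85 at stromal resolution 0.3 and 1.29 under the marker gate, and intact *Fgf7* 1.07 and 1.01 at resolutions 0.3 and 1.0. Under the stricter cell filter (a minimum of 1000 genes, with mitochondrial UMIs limited to 5%) callus *Pdgfra* was 1.29, *Pdgfrb* 0.70 and *Fgf10* -0.11. Callus *Pdgfra* was 0.22 at resolution 0.3, 1.26 at all-cell resolution 0.5 and 1.48 with the members among the variable genes. Callus *Pdgfrb* was 0.60 with at least 200 genes, 0.53 with more doublets removed, 0.89 at resolution 0.3, 0.64 at all-cell resolution 0.5, 0.77 under the marker gate and 0.49 without cells of at least 3 mural markers. Callus *Fgf7* was 1.14 at resolution 1.0. Callus *Fgf10*, where *Col15a1*-type cells had 0 UMIs and the ratio is a bound, was -0.16 with at least 200 genes, -0.46 with more doublets removed, -0.64 at resolution 1.0, -0.11 at all-cell resolution 0.5 and 0 with the members among the variable genes. The causes were not tested, apart from the mural cells.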

Other observations

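An unnamed cluster led by *Ctla2a*, *Angpt1* and *Muc13* (22 intact and 76 callus cells) carried 43 *Pdgfrb* UMIs in 29 cells, 21.0 CPM (15.2 to 28.3), and had 7 *Fgfr1* UMIs. The exon overlaps of the other members with separately counted genes were small: *Gm42802* with *Pdgfra* and *Gm16159* with *Fgfr1* had 2 UMIs each, and *Gm16263* with *Fgf10* had 3.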
